A study of Homo sapiens with 3 samples.

Results

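The 10 genes described here encode parts of the outer kinetochore: NDC80, NUF2 and SPC25 of the NDC80 complex, SKA1, SKA2 and SKA3 of the SKA complex, ZW10, ZWILCH and KNTC1 of the RZZ complex, and SPDL1. They were taken by name, as 10 of 20037 protein-coding genes, and every SOX4 summit inside them or within 50 kb of their ends was collected, 15 of 7511 summits in all. Names were chosen with SOX4 sites at SKA3 and SPDL1 already known, so the number of sites at these genes is a description and was not tested. SOX4, a transcription factor with a high-mobility-group DNA-binding domain, was mapped with ChIP-seq (chromatin immunoprecipitation and sequencing) in the human cell line BT549, which derives from a triple-negative breast cancer, at passage 5. The 3 libraries, named replicates 1, 2 and 3 after their titles, form 1 group with 1 SOX4 antibody; all 3 titles carry the code UT, which the labels do not spell out, and the labels do not say whether they came from separate cultures. No input, IgG or second condition was analysed here. A summit is the 1-bp position at which a called peak is highest, and its score is the authors' −log10 of a p or q value, which ranks summits only within its own list. The lists held 1368, 1713 and 4430 summits in replicates 1, 2 and 3, and the depth of sequencing is unknown. Positions are on GRCh38.

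The kinetochore is the protein assembly built on each centromere that holds the chromosome to spindle microtubules during cell division. The NDC80 complex is its main microtubule binder, and the SKA complex loads onto it and steadies the attachment as the microtubule end shortens. The RZZ complex forms the fibrous corona of unattached kinetochores, where it recruits Spindly, the product of SPDL1, which in turn brings in the motor dynein, and where checkpoint proteins that delay anaphase gather. Many of these genes are transcribed mainly in the later part of the cell cycle, through a promoter element called CHR (cell cycle genes homology region) that is bound by repressor and activator complexes of the MuvB family.

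SKA3, SPDL1 and NUF2 had a summit of every library within 1 kb of their start. ZW10 had summits of replicates 1 and 3 there, KNTC1 had 1 weak summit of replicate 3 near its lower-coordinate end, and the other 5 had none within 1 kb of either end. In counts, 5 of the 10 genes had at least 1 summit, whichever the library, at 1 kb or less from a gene end, where 15.1% of all coding genes had one. With 5 kb the count was again 5, against 17.8% of all coding genes. A site is called shared here when summits of at least 2 libraries are linked by gaps of at most 200 bp, with its distance taken from its midpoint. Such a site lay within 1 kb of 4 of the 10 genes, against 2.51% of all coding genes, and a site of all 3 libraries at 3 of them, against 0.579%. Inside the gene or within 50 kb, 7 genes had any summit (35.0% of all coding genes) and 4 had a shared site (6.52%). These percentages give the background only, because the genes were picked with their sites known.

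The 15 summits were 4 of replicate 1, 4 of replicate 2 and 7 of replicate 3. Of them, 12 lay within 1 kb of a gene end and 11 within 250 bp, and 11 belonged to a shared site. Without replicate 3 the number of genes with a summit within 50 kb fell from 7 to 4 and the number of summits from 15 to 8. Without replicate 1 the number of genes with a shared site fell from 4 to 2, SKA3 and SPDL1.

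**Figure D1:**
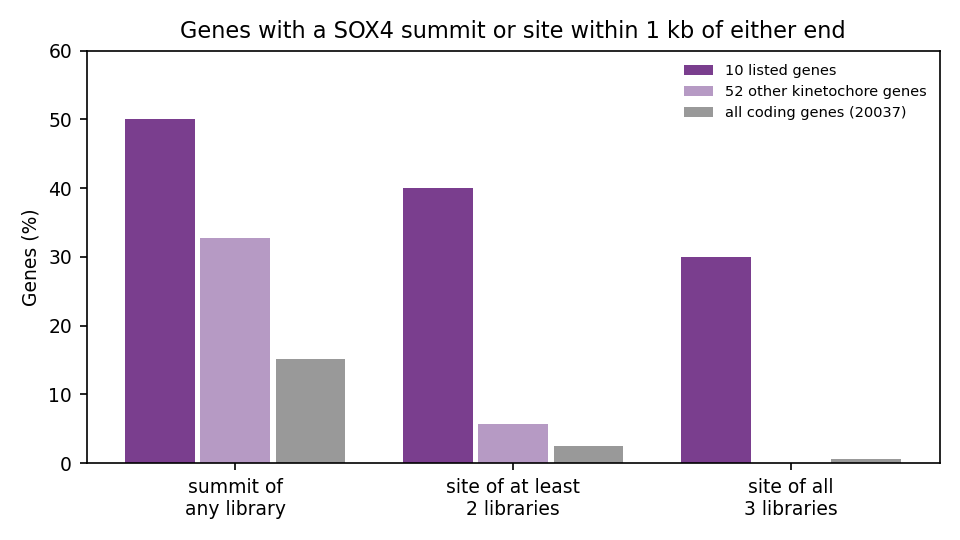
Bars give the percentage of genes (vertical axis) with a summit of any library, a site of at least 2 libraries or a site of all 3 libraries within 1 kb of either gene end. The 10 listed genes (5, 4 and 3 of 10) were chosen with their sites known, the 52 other kinetochore genes (17, 3 and 0 of 52) were listed from textbook complexes, and the grey bars are all 20037 coding genes (15.1%, 2.51% and 0.579%).

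SKA3, the SKA subunit that carries the phosphorylated contact with NDC80, had the strongest site of the 10 genes. The gene spans chromosome 13, 21153595 to 21176552, on the minus strand, and starts at its upper coordinate. Head to head with it lies MRPL57 (21176658 to 21179084, plus strand), which encodes a protein of the mitochondrial ribosome, and only 105 bases separate the starts. That stretch is shown because the summits of replicates 1 and 2 fall in it; it is read in the direction of SKA3 from RefSeq (GRCh38.p14, chr13:21176553-21176657, minus strand), and the capitals mark the inner 10 bases of its longest palindrome, 12 bases long, whose matches elsewhere are given further on.

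SKA3 to MRPL57: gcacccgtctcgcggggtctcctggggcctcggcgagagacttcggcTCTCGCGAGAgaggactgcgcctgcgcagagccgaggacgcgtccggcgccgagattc

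The replicate 1 summit lay at 21176588, 36 bp upstream of the SKA3 start and 70 bp upstream of the MRPL57 start, with a score of 31.2 and rank 50 of 1368. In replicate 2 the summit was at 21176610, 58 bp from the SKA3 start and 48 bp from the MRPL57 start, with a score of 25.6 and rank 80 of 1713. Replicate 3 placed it at 21176764, 212 bp upstream of SKA3 and 106 bp inside MRPL57, with a score of 10.6 and rank 269 of 4430. So replicates 1 and 2 put the summit between the genes and replicate 3 put it inside the neighbour, and the position does not tell which of the 2 genes the site belongs to. In each list the summit scored above at least 93.9% of the others (96.3%, 95.3% and 93.9%). Among the 96 sites that all 3 libraries held at an end of a coding gene (1 kb or nearer), the SKA3 site was the first when sites were ordered by their worst rank over the libraries. It placed 2 in replicate 1, 3 in replicate 2 and 14 in replicate 3 by score. Chromosome 13 as a whole carried many sites: 29.3% of its 338 coding genes had a summit within 1 kb of an end and 6.51% had a shared site. The part of the chromosome in the SKA3 site was not tested.

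The other SKA genes had no summit within 50 kb. SKA1, the subunit with the microtubule-binding domain (chromosome 18, 50375046 to 50394168), had its nearest summits 561 kb away in each library. SKA2 (chromosome 17, 59109857 to 59155186, minus strand) had them 4141 kb away in replicates 1 and 2 and 465 kb away in replicate 3. SKA2 also starts head to head with a coding gene, PRR11, at 559 bases between the genes, where SKA3 and MRPL57 have 105. The part of a divergent start in having a summit was not tested. The 150 bases before the SKA2 start are shown for contrast (GRCh38.p14, chr17:59155187-59155336, minus strand); capitals mark 3 copies of the letters CCAAT, the box bound by the factor NF-Y.

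SKA2 upstream: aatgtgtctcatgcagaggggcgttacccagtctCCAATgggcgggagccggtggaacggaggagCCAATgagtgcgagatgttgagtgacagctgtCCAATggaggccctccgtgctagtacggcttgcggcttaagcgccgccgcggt

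SPDL1, the gene of the dynein adaptor Spindly (chromosome 5, 169583773 to 169604778, plus strand), had the second strongest site. Its summits were at 169583729, 169583752 and 169583913 in replicates 1, 2 and 3, which is 44 and 21 bp upstream of the start and 140 bp downstream of it. The scores were 17.1 (rank 128 of 1368), 9.51 (rank 292 of 1713) and 8.95 (rank 468 of 4430), above 90.6%, 83.0% and 89.4% of the lists. All 3 libraries thus placed SPDL1 in the top 17.0% of their summits. By worst rank the site was the seventh of the 96 at gene ends (place 7). RefSeq gives a second SPDL1 start 307 bp further on, at 169584080, and the replicate 3 summit lay 167 bp before it. Upstream, the long non-coding RNA gene LOC105377714 starts 112 bp away on the opposite strand. The 111 bases between these genes are shown because they hold the summits of replicates 1 and 2 (GRCh38.p14, chr5:169583662-169583772, plus strand). In order, the capitals mark the reverse complement of CCAAT, 2 matches to the palindrome of SKA3 with 1 mismatch each, and the CHR letters TTTGAA as their reverse complement.

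SPDL1 upstream: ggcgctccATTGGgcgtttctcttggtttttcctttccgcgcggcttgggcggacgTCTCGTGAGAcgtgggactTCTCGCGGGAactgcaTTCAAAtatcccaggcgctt

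On chromosome 5, 25.8% of the 904 coding genes had a summit within 1 kb and 3.87% a shared site, above the 15.1% and 2.51% of all coding genes. Chromosomes 8 and 13 were higher on both measures.

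Of the NDC80 complex, NUF2, the partner that pairs with NDC80 in the microtubule-binding arm, had a site of all 3 libraries, but a weak one in replicate 1. The gene spans chromosome 1, 163321954 to 163355759, on the plus strand. Summits lay at 163321956 in replicate 1 (2 bp inside the start, score 3.65, rank 1244 of 1368), at 163321914 in replicate 2 (40 bp upstream, score 7.63, rank 413 of 1713) and at 163322144 in replicate 3 (190 bp inside, score 6.66, rank 1203 of 4430). Replicates 2 and 3 ranked it above 73.4% and 70.3% of their lists and replicate 1 above 6.65%. By worst rank it took place 79 of the 96 sites. The summits of replicates 2 and 3 were 230 bp apart, so they count as 1 site only through the replicate 1 summit between them. RGS5, a regulator of G-protein signalling, starts 219 bp upstream on the opposite strand, and its start was 179 bp from the nearest of these summits. A further summit of replicate 2 lay 13.1 kb inside NUF2, at 163335076, with a score of 3.09, above 0.934% of its list, and no other library shared it. On chromosome 1, 20.2% of the 2062 coding genes had a summit within 1 kb of an end and 4.17% a shared site. Over all coding genes these shares were 15.1% and 2.51%. The 150 bases before the NUF2 start are shown because they hold the replicate 2 summit and none of the letters capitalised in the other sequences (GRCh38.p14, chr1:163321804-163321953, plus strand).

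NUF2 upstream: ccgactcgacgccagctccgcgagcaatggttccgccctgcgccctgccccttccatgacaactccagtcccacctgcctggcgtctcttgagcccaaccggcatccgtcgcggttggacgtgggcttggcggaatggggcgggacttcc

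NDC80 itself (chromosome 18, 2571557 to 2616635) had no summit at its start, although only 51 bases separate it from the head-to-head gene METTL4. Its 1 summit within 50 kb, of replicate 3, was 38.7 kb past the gene, at 2655354 with a score of 5.44 and rank 2338 of 4430. That summit was 372 bp from the start of SMCHD1, a chromatin protein gene, and inside the pseudogene CBX3P2. SPC25, whose product joins the complex to the inner kinetochore (chromosome 2, 168861521 to 168890430), had its nearest summits 3004, 2039 and 437 kb away in replicates 1, 2 and 3.

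Among the RZZ genes, ZW10 (chromosome 11, 113733187 to 113773692, minus strand) had a site of 2 libraries at its start. The replicate 1 summit was at 113773751, 59 bp upstream, with a score of 5.77 and rank 730 of 1368. The replicate 3 summit was at 113773628, 64 bp inside the gene, with a score of 4.30 and rank 3540 of 4430. Both stood below the middle of their lists, above 46.6% and 19.8% of the summits, and the nearest replicate 2 summit was 522 kb away. On chromosome 11, 9.76% of the 1301 coding genes had a summit within 1 kb of an end and 1.46% a shared site. No start on the opposite strand was found within 1 kb upstream of ZW10, the only 1 of the 9 genes with a known start for which this was so. Its upstream bases are printed as those of the shared site with only 2 libraries (GRCh38.p14, chr11:113773693-113773842, minus strand), with the reverse complement of CCAAT in capitals.

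ZW10 upstream: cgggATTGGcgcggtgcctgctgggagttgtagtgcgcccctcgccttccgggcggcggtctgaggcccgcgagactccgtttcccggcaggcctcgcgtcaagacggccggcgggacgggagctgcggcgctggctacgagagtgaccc

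KNTC1, which encodes the Rod subunit (chromosome 12, 122527249 to 122626396), had 1 summit, of replicate 3, at 122526801. It lay 448 bp outside the gene and 135 bp inside RSRC2, a minus-strand gene that starts at that end, and its score of 3.24 (rank 4312 of 4430) was above 2.55% of the list. ZWILCH (chromosome 15, 66505326 to 66550130) had no summit at its start, which faces that of the ribosomal protein gene RPL4 at 470 bases between the genes. A replicate 3 summit at 66497809, 7.52 kb upstream of ZWILCH, scored 10.2 (rank 299 of 4430), above 93.3% of the list. That position is 47 bp before the start of SNAPC5, a subunit of the complex that activates small nuclear RNA genes. The same position is 206 bp beyond the other end of RPL4. This summit was the strongest of the 4 unshared summits near the 10 genes, and the nearest of the 4 to the start of another coding gene.

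**Figure D2:**
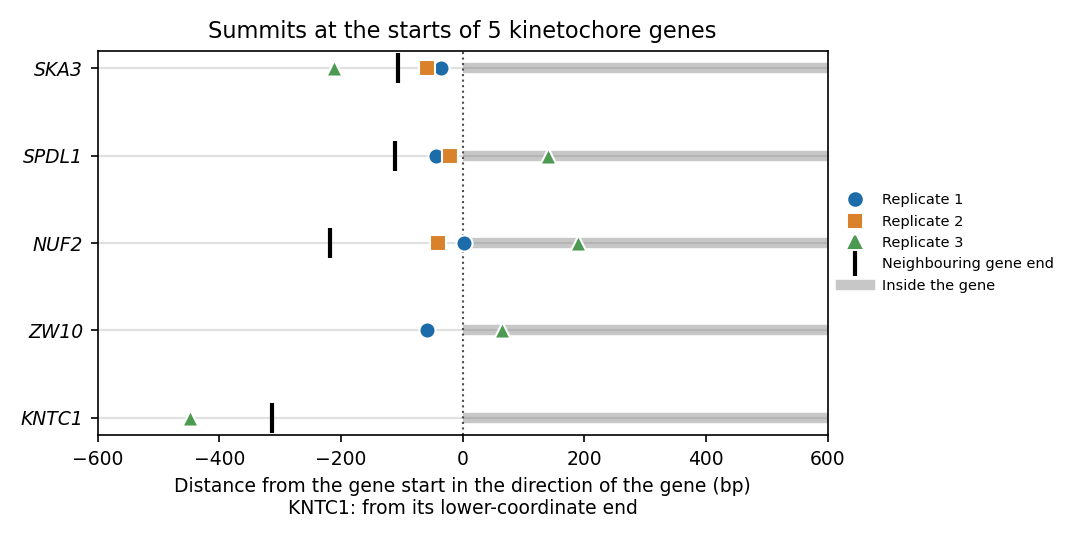
Each point is a summit at its distance in bp from the gene start, in the direction of the gene (for KNTC1, from its lower-coordinate end), coloured by replicate; black ticks mark the neighbouring gene's end and grey bars the gene itself. At SKA3, SPDL1 and NUF2 the summits of replicates 1 and 2 sit within 58 bp of the start, and that of replicate 3 sits 140 to 212 bp from it.

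The libraries differed in where they put the summit. At SKA3, replicates 1 and 2 were 22 bp apart and replicate 3 was 176 and 154 bp from them. At SPDL1 the distances were 23, 184 and 161 bp, and at NUF2 they were 42, 188 and 230 bp. At ZW10, replicates 1 and 3 were 123 bp apart. Measured along the listed gene, replicate 3 was displaced upstream at SKA3 and downstream at SPDL1, NUF2 and ZW10. The replicate 3 summit at SKA3 lay 106 bp inside MRPL57, so along MRPL57 it was displaced downstream. Whether the displacement has a fixed direction was not tested. Over 93 sites within 1 kb of a coding gene end with 1 summit of each library, the median distance was 70.0 bp between replicates 1 and 2, 125 bp between 1 and 3, and 108 bp between 2 and 3. At 170 such sites farther than 1 kb from a coding gene end the medians were 40.5, 57.0 and 46.0 bp. Because sharing is defined by 200 bp, joining summits at 100 bp left 2 libraries at SKA3, SPDL1 and NUF2 and no shared site at ZW10, an alternative that was added for single genes after the data were seen.

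**Figure D3:**
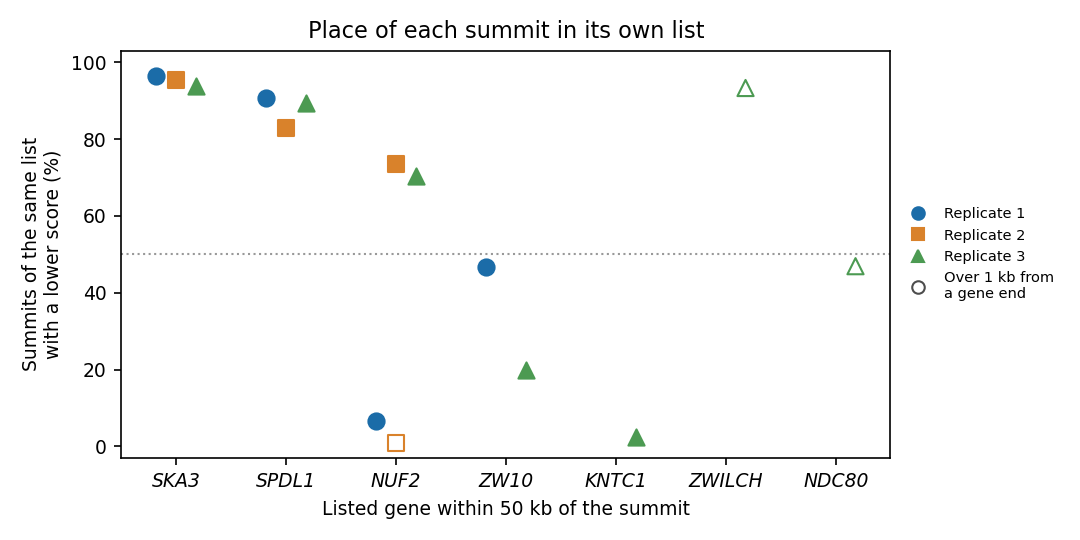
For each gene with a summit within 50 kb, points give the percentage of summits in the same list with a lower score, coloured by replicate; open symbols are summits over 1 kb from a gene end. SKA3 and SPDL1 are at 83.0% or higher in every library, whereas ZW10 and KNTC1 are below 50% and NUF2 ranges from 6.65% to 73.4% at its start.

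The threshold of 50 kb separated the NDC80 summit, at 38.7 kb, from a replicate 3 summit 76.1 kb from ZW10 and another 92.1 kb from SKA3, the nearest outside it. The KNTC1 neighbourhood held a stronger site past the threshold, 126 to 127 kb from the gene and within 98 bp of an end of DENR, with scores of 21.4, 25.8 and 6.63 in the 3 libraries.

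What the promoters share was then read from RefSeq sequence, in windows from 250 bases before to 50 after each start. Of the 10 genes, 9 had an entry (all but KNTC1), and 15842 of all coding genes did. The CHR letters TTTGAA, on either strand, were in 7 of the 9: NDC80, NUF2, SPC25, SKA1, SKA3, ZW10 and SPDL1. They were in 12.2% of all coding promoters and in 13 of the 43 other kinetochore genes with an entry. In SKA3, NDC80 and SPC25 the match ran from 3 bases before the start to 3 after it, and in SPDL1 it lay 20 to 15 bases before. This element was common to genes with sites and genes without, and among the 362 coding promoters with a shared site within 1 kb of the start 12.4% held it. The variant TTCGAA was in NDC80 alone (1.60% of all promoters). CCAAT was in SPC25, SKA2, ZW10, ZWILCH and SPDL1, that is 5 of 9, against 36.4% of all promoters.

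Of the letters bound by the SOX family, the core ACAAT was in ZWILCH only, 102 to 98 bases before its start. It was in 21.2% of all promoters, 17.7% of those with a shared site and 25.6% of those with a site of all 3 libraries, so 1 of 9 is near the background. The longer AACAATG, which contains that core, and the SOX and TCF form ACAAAG were in none of the 9 (2.39% and 13.0% of all promoters). No match says only that these letters are not in the window. The E2F form GCGGGAA was in SPC25, SKA1, ZW10 and SPDL1 (8.57% of all promoters) and GGCGCGAA in none (1.31%). CCGGAAG, an ETS core, was in SKA1 and ZW10 (14.2%), the cyclic AMP response element TGACGTCA in NDC80 (2.56%), and neither the NRF1 element of 10 bases (1.77%) nor the YY1 letters AAGATGGCG (2.69%) were in any.

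The letters TCTCGCGAGA, a palindrome that reads the same on both strands, were added after the sequences of SKA3 and SPDL1 had been seen. They were in SKA3 alone of the 9, 58 to 49 bases before the start, with the replicate 2 summit 4.5 bp and the replicate 1 summit 17.5 bp from their centre and the replicate 3 summit 158.5 bp from it. They were in 0.669% of all coding promoters (106 of 15842), in 12.2% of the 362 with a shared site and in 22.0% of the 82 with a site of all 3 libraries. Allowing 1 mismatch added SPDL1, at 55 to 46 bases (C6T, counted from the first base of the palindrome) and at 36 to 27 bases before the start (A8G), and ZWILCH at 240 to 231 bases before it (A10T). The shares were then 1.90%, 24.6% and 39.0%. Genes that start head to head, such as SKA3 and MRPL57, have overlapping windows and can count 1 match for each gene. NUF2 and ZW10, which had a shared site, held no match, and ZWILCH, which held one, had no shared site. SKA3 and SPDL1 had both, but the letters were chosen after their sequences were seen, so these 2 genes are no support.

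**Figure D4:**
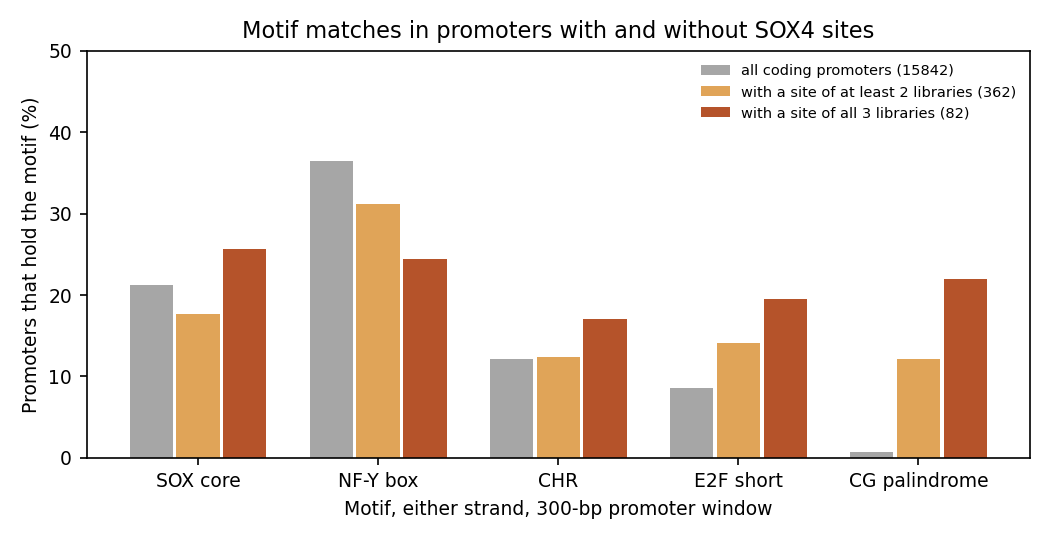
Bars give the percentage of 300-bp promoter windows (vertical axis) that hold each motif on either strand, for all 15842 coding promoters, the 362 with a site of at least 2 libraries and the 82 with a site of all 3 libraries. The CG palindrome found in SKA3 stands at 0.669%, 12.2% and 22.0%, while the SOX core stands at 21.2%, 17.7% and 25.6%.

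CpG content overlapped between the 4 genes with a shared site and the others. The ratio of observed to expected CpG was 0.99 at SKA3, 1.02 at SPDL1, 0.93 at NUF2 and 1.13 at ZW10, and it was 1.07 at NDC80, 1.01 at ZWILCH, 0.87 at SKA1, 0.78 at SKA2 and 0.75 at SPC25. The median was 0.76 over all coding promoters and 0.89 over those with a shared site. The share of G and C was 67.7% at SKA3, 57.3% at SPDL1, 62.3% at NUF2 and 61.7% at ZW10, and ran from 54.3% at ZWILCH to 65.7% at SKA1 among the others, so it overlapped too.

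A start on the opposite strand within 1 kb upstream was found for 8 of the 9 genes, beside 19.8% of all coding genes with a start in the table. For 5 it belonged to a coding gene, beside 10.2%: MRPL57 at SKA3, RGS5 at NUF2, METTL4 at NDC80, PRR11 at SKA2 and RPL4 at ZWILCH. Of these 5, SKA3 and NUF2 had a shared site. Over all coding genes with a start, 4.91% of the 1609 with such a coding neighbour had a shared site within 1 kb, against 1.99% of the 14233 without. A site between such starts can count for both genes, and the 1-kb window of each gene also covers its neighbour's start. The part of this counting in the difference was not tested.

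The rest of the kinetochore was read from a list of 52 other genes taken from textbook complexes, with earlier results of these data known. Of them 17 had some summit at 1 kb or less from a gene end and 3 had a shared site, PMF1, MAD1L1 and NDE1, beside 15.1% and 2.51% of all coding genes. A site of all 3 libraries was at 0 of 52, beside 0.579% of all coding genes. By the rule that a count of 0 allows up to 3 at about 95% confidence, the underlying share could reach 5.77%. The list leaves out the 10 genes chosen with their sites known, so this limit does not describe kinetochore genes as a whole. Replicate 3 alone gave 11 of the 17, and without it 6 remained; leaving out any 1 library left 1 of the 3 shared sites. MAD1L1, the checkpoint protein that anchors MAD2 at kinetochores, had the highest score of the list, 13.4 in replicate 1, and 7.44 in replicate 2, at 26 and 22 bp from its start. PMF1, of the MIS12 complex that links NDC80 to the centromere, had scores of 9.75 in replicate 1 and 7.42 in replicate 3, at 238 and 217 bp. NDE1, a dynein regulator, had scores of 3.82 in replicate 2 and 3.92 in replicate 3 at its shared site, and 1 more replicate 3 summit 42 bp from its start.

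By class, beside 15.1% of all coding genes, a summit of any library was at 2 of 4 genes of the MIS12 complex (MIS12 and PMF1), 0 of 2 of the KNL1 complex, 5 of 16 of the constitutive centromere network (CENPC, CENPH, CENPK, CENPL and CENPP) and 1 of 6 of centromeric chromatin (OIP5). The checkpoint genes had 3 of 8 (MAD1L1, TTK and MAD2L1BP), the corona and motor genes 4 of 8 (CENPE, CLASP2, KIF2C and NDE1), and the passenger and cohesion genes 2 of 7 (AURKB and SGO2). With so few genes in each class, no class was read as above or below the background. Replicate 1 alone gave CENPC and SGO2, and replicate 2 alone gave CENPH with a score of 9.02. The 14 replicate 3 summits of these genes had scores of 3.81 to 7.42, all below the 10.6 of SKA3 and the 8.95 of SPDL1 in that list. Their range took in the scores of NUF2 (6.66) and ZW10 (4.30) and lay above that of KNTC1 (3.24). SPC24, the fourth NDC80 subunit, had none within 1 kb.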

How the data were processed

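Each of the 3 libraries came with 1 list of 1-bp summits, called per library. The score deposited with each summit is on the −log10 scale of MACS2; whether of the p-value or of the q-value is not given in the sources used here. MACS2, BWA and SAMtools are named without versions, and hg19 as the build, per the submitters' processing notes. The positions are nevertheless those of GRCh38: the highest on chromosomes 17, 20 and X were 83247361, 64088674 and 156030493, past the hg19 ends, and 41 contig names carry GRCh38 KI270 identifiers. Peak widths, read numbers and controls were not used here, so depth is unknown.

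Gene ends and promoter sequences came from RefSeq tables of GRCh38.p14; a promoter entry nearest to a gene end gave the start and strand of 15842 of 20037 coding genes. Summits linked by gaps of at most 200 bp formed sites. Counts were made in Python 3.11.15 with pandas 2.3.3, and the counting steps were tested on simulated data. The simulated libraries were placed well inside the 200 bp limit, so linking near that limit was not tested. The text names the 10 genes with every summit within 50 kb, other kinetochore genes with a summit within 1 kb, and neighbours that hold or are nearest to a summit. The 10 genes, the lists, the first 12 motifs and the alternatives (score, list length, linking distance, windows, start site only, libraries left out) were chosen with earlier results of these data known, and no test was made.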

Additional observations from a re-analysis of the deposited data

How the results depend on the processing

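Of 68 recomputed counts, 51 stayed within 1.5 times the reported one. Keeping only summits at or above the median score of their list gave 2 genes with a shared site within 1 kb and 2 within 50 kb (from 4), 4 genes with any summit within 50 kb (from 7), 3 within 5 kb and 3 within 1 kb (from 5 each), 9 summits (from 15) and 8 of 52 other kinetochore genes (from 17). Cutting each list to 1368 summits gave 9 of these 52. Requiring all 3 libraries gave 0 of 52, from 3. Leaving out 1 library gave 2 to 4 genes with a shared site at both windows, 4 to 7 with any summit within 50 kb, 8 to 11 summits, 6 to 16 of 52 other genes with a summit and 1 with a shared site. With start sites only, 9 of the 10 and 43 of the 52 genes could be counted. SKA3 and SPDL1 kept all 3 libraries at or above the median score. No paired analysis was possible because the libraries form 1 group. Unknown depth limits every count: a gene without a summit was not shown to lack SOX4.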

Other observations

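The palindrome TCTCGCGAGA of the SKA3 promoter, searched after its sequence was seen, was followed over all coding promoters. Of the 106 that hold it, 73.6% had some summit at 1 kb or less from the start, 41.5% a shared site and 17.0% a site of all 3 libraries, against 15.1%, 2.02% and 0.407% of the 15736 that do not. The promoters with it also had a higher CpG ratio, with a median of 0.93 against 0.76, and the part of CpG content in this difference was not tested. Summits of replicates 1 and 2 lay near the palindrome, at a median of 37.5 bp (65 summits) and 35.5 bp (46 summits) from its centre, and 58.5% and 63.0% of them were within 50 bp. The 47 summits of replicate 3 lay at a median of 194 bp, and 8.51% were within 50 bp. Distances from the gene start were 74.0, 55.0 and 181 bp, so the summits of replicate 3 were farther from both. SKA3, which gave the palindrome, is among these promoters and is no separate support. Neither is MRPL57, whose window holds the same palindrome. Other genes that start head to head can likewise count 1 palindrome and 1 site for each gene in these shares. The SKA3 summits lay 17.5 and 4.5 bp from the palindrome centre in replicates 1 and 2 and 158.5 bp in replicate 3. Of the 43 other kinetochore genes with a promoter entry, MAD1L1 alone held the palindrome, 6.5 bp from its replicate 1 summit and 41.5 bp from its replicate 2 summit.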
